A study of Homo sapiens with 12 samples.

Results

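The data described here are the 2 H2A.Zac chromatin immunoprecipitation (ChIP-seq) libraries of a series of 12 libraries from Huh7 cells, a line grown from a human liver tumour. They were chosen by antibody, H2A.Zac, and by virus, and their peaks on chromosomes 1 to 22 and X (hg19) were used. The control library listed 81287 such peaks and the VPS72 overexpression library 74204, of 1553127 peaks in the ChIP libraries of the series. Of these, 40081 and 28331 had a deposited q of 0.05 or less. They are called regions below.

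Both groups were Huh7 cells with a FLAG tag knocked in by CRISPR at the end of the coding sequence of VPS72, kept from colonies that survived blasticidin. The control was infected with a lenti-HA virus, named an empty vector in the design, and the other group with a lenti-VPS72-FLAG virus, each for 24 h. The tag is therefore in both groups, and no untagged or uninfected cells are among the groups compared. Whether colonies were pooled is not given in the sources used here. In the labels, the genotype of the overexpression H2A.Zac library reads VPS75, but its title, its library name and the design name VPS72, which was followed. The study's title places VPS72 gain in lipid synthesis and liver cancer.

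H2A.Z is a variant of histone H2A that sits in the nucleosomes flanking gene starts and in enhancers, and H2A.Zac is the same variant with acetylated lysines in its tail, a form found at active promoters. VPS72, also called YL1, is a subunit of the SRCAP and TIP60 complexes, which exchange H2A for H2A.Z, and it binds H2A.Z directly. TIP60 also holds an acetyltransferase that acts on H2A.Z, H2A and H4. H3K27ac marks active promoters and enhancers, and H3K4me1 marks enhancers, active or not.

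There was 1 library per group, so no test between the conditions was possible and every difference below describes 2 libraries. The height of a region is the number of reads at its summit divided by the genome average of that library, which was 1.94 reads in the control and 2.23 reads with overexpression. Depth recovered from the lists was 21.7 and 25.02 M reads. A lower level of the mark in the cells and a weaker pulldown in that library cannot be told apart, since no spike-in or other scale common to both libraries was used here. The background around regions, as a multiple of the genome average, had a median of 1.19 in the control and 1.11 with overexpression. Its part in the results was not tested.

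The overexpression library had fewer regions at every limit tried, and the gap was widest among the strongest regions. Among all deposited peaks the overexpression list was 0.913 times as long as the control list. At q of 0.05 or less the ratio was 0.707, at 0.01 it was 0.712, at 1e-10 it was 0.524, at 1e-20 it was 0.313, and at 1e-50 it was 0.111, from 1091 regions to 121. Since q depends on depth, summit heights were counted as well. Regions at least 10 times the genome average numbered 0.583 times as many with overexpression, those at least 20 times 0.248, and those at least 50 times 0.224. The library with the lower counts was the deeper one.

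**Figure D1:**
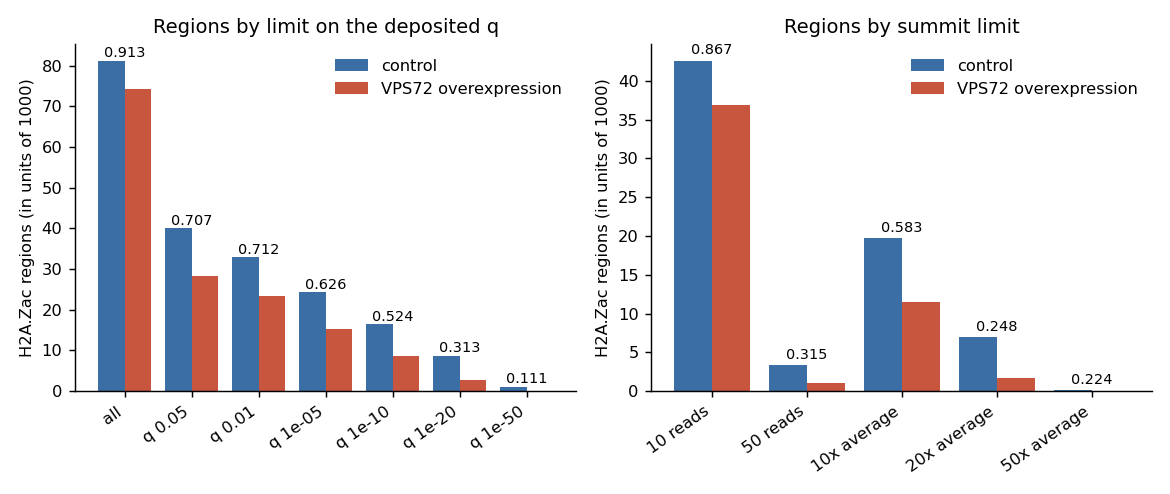
Number of H2A.Zac regions (in units of 1000, vertical axes from 0) in the control (blue) and VPS72 overexpression (red) libraries, by limit on the deposited q (left) and by reads or height at the summit (right). The number over each pair is overexpression over control, which goes from 0.913 for all peaks to 0.111 at a q of 1e-50.

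Nearly all regions with a peak in both lists were lower with overexpression. Of the 40081 control regions, 29649 overlapped a deposited overexpression peak by at least 1 bp. Their height ratio, overexpression over control, had a median of 0.652 with quartiles of 0.557 and 0.767. Of these regions 53.3% were at least 1.5 times lower and 0.182%, or 54 regions, at least 1.5 times higher. Counted from the overexpression list, 26446 regions had a control peak, with the same median and with 70 at least 1.5 times higher. The same ratio had a median of 0.748 for H3K27ac, 0.852 for total H2A.Z and 1.09 for H3K4me1 at control-selected regions of each mark. Selection in the overexpression list moved total H2A.Z to 0.994 and H3K4me1 to 1.2.

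The median ratio was below 1 in every class of strength, but its order over the classes depended on the library that set them. In the control classes it was lower where regions were stronger, and in the overexpression classes it was not. Control regions were split by height into 5 equal classes. In the lowest class, with a median height of 5.15, only 27.5% had an overexpression peak, and the ratio of those was 0.790. The next classes had 57.0%, 87.1% and 98.4% found, with ratios of 0.724, 0.652 and 0.632. In the highest class, with a median height of 24.2, 99.9% were found and the ratio was 0.624. The share at least 1.5 times lower went from 21.2% in the lowest class to 64.0% in the highest. Ratios in the 2 lowest classes cover only the regions that still had a peak. When the classes were made from the overexpression heights, the medians lay between 0.637 and 0.679, with the highest median in the highest class. In that class 45.3% were at least 1.5 times lower, against 53.7% to 56.0% in the other classes. The 54 regions at least 1.5 times higher all came from the 3 lower control classes, with 25, 17 and 12 of them.

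**Figure D2:**
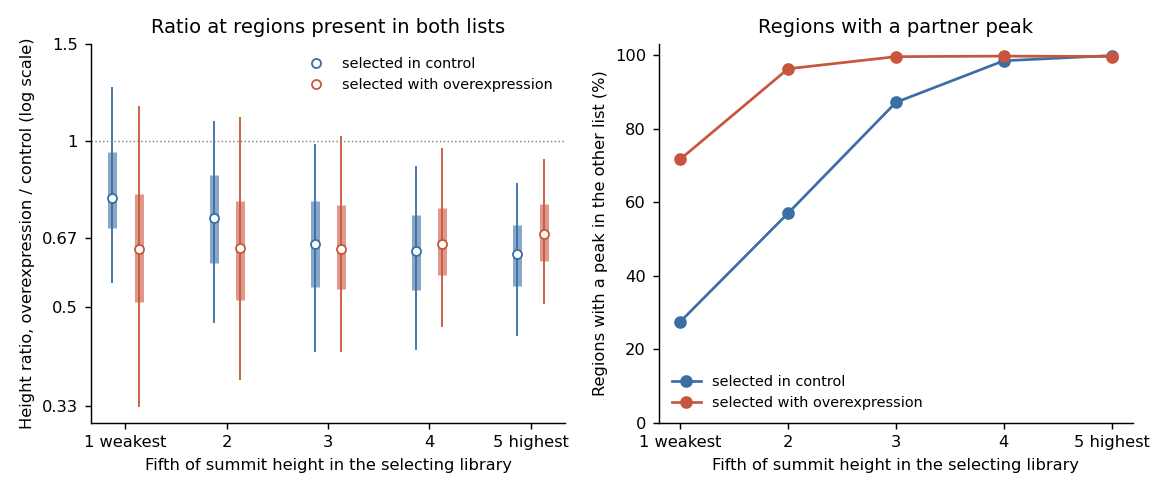
Left, height ratio (overexpression over control, log scale) at regions with a peak in both lists, by class of summit height in the selecting library; points are medians, thick bars quartiles and thin bars the 5th to 95th percentiles. Right, percent of regions with any peak in the other list. Medians of all 10 classes lie between 0.624 and 0.790, below 1.

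Regions were also narrower. The partner of a control region is the highest overexpression peak on it, so any further peaks there are not in its width. The median width of the 29649 control regions with a partner was 1099 bp, and that of the partner 748 bp. The partner was narrower in 83.0% of them, and 3831 control regions, 12.9%, were covered by more than 1 overexpression peak, up to 5. The other way, 508 deposited overexpression peaks lay over more than 1 deposited control peak. A partner need not pass q, and the pairs were chosen from the control side only. Over all regions of each list, at q of 0.05 or less, the median widths were closer, at 890 and 773 bp. Summits lay at nearly the same place, with a median distance of 80 bp, and 57.6% were within 100 bp. The count ratio was lowest among wide regions: 2415 control and 700 overexpression regions were 2000 to 3000 bp wide, a ratio of 0.290, and 296 and 33 were 3000 bp or wider, a ratio of 0.1115. In that class 95.3% of the control regions carried H3K27ac and 87.8% total H2A.Z. The median height ratio of these wide control regions was 0.652, the value of all regions. A lower summit also leaves less of a peak above the caller's cutoff, and the part of this in the width was not tested.

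The 3 widest control regions show this in single places, each set against the width of a single overexpression peak. The region at 11p13 (chr11:31830069-31836489) spanned 6421 bp in the control, and its overexpression peak 2838 bp, with heights of 20.1 and 15.2. At 2q35 (chr2:219260178-219266560) the widths were 6383 and 1750 bp and the heights 35.04 and 23.7. At 7p22.1 (chr7:5463774-5470056) they were 6283 and 2639 bp, with heights of 19.6 and 13.4. All 3 carried H3K27ac peaks in both libraries. The widest overexpression regions, at 17q23.2, 11q13.3 and 15q25.3, spanned 4082, 3829 and 3541 bp and were almost as wide in the control, at 4360, 3871 and 3743 bp. Their heights were still lower, with ratios of 0.687, 0.565 and 0.636.

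The regions differed much in strength by the other marks they carried, but those with an overexpression peak differed little in their ratio. Of the control regions, 41.9% overlapped a total H2A.Z region, 49.9% an H3K27ac region and 14.4% an H3K4me1 region, all at q of 0.05 or less in the control libraries. H2A.Z with H3K27ac and no H3K4me1 was found at 8823 regions, with a median height of 20.1, a width of 1536 bp and a partner in 98.97%. The 1121 regions with all 3 had a height of 18.0 and a partner in 95.9%. H2A.Z alone was found at 5925 regions of height 11.9, and H3K27ac alone at 7847 of height 9.79. The largest group, 11729 regions or 29.3%, carried none of the 3 and was weak, at a height of 6.18, and 46.8% of it had an overexpression peak. The median ratio was between 0.637 and 0.668 in all 8 combinations. It covers only regions with an overexpression peak, so it leaves out most of the group with none of the 3 marks. An H2A.Zac region with no H2A.Z region is one where the pan-H2A.Z antibody did not pass q, not one shown to lack H2A.Z: 72.4% of control regions overlapped some deposited H2A.Z peak.

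**Figure D3:**
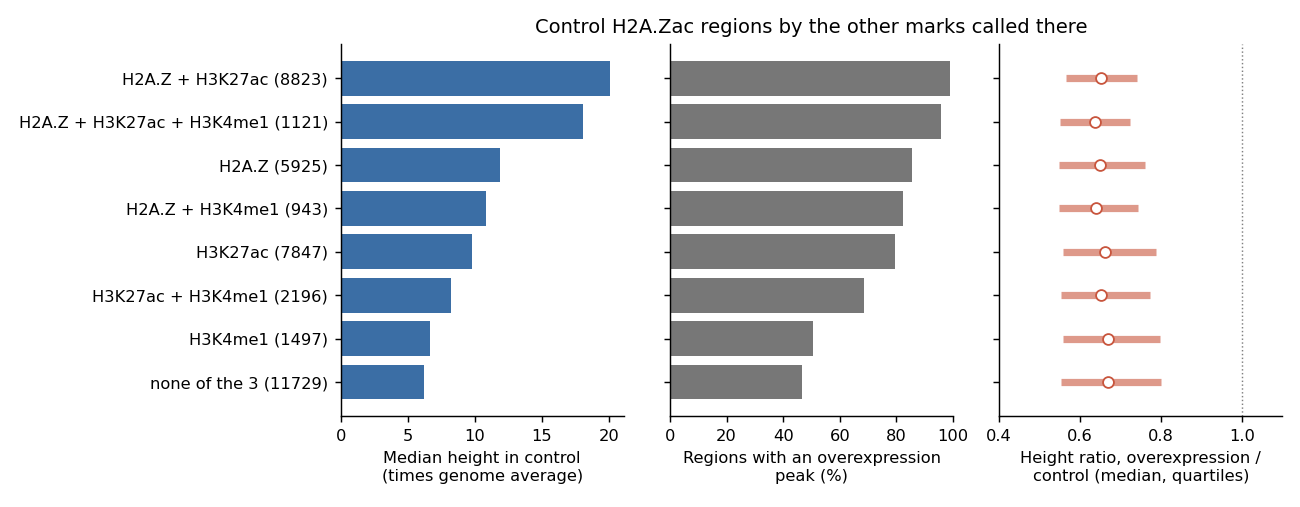
Control H2A.Zac regions by the H2A.Z, H3K27ac and H3K4me1 regions they overlap (number of regions in brackets): median height as a multiple of the genome average, percent with an overexpression peak, and median height ratio with quartiles over the regions with such a peak. Heights go from 6.18 to 20.1 and shares found from 46.8% to 98.97%, while the medians of the ratio stay between 0.637 and 0.668.

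Within the lowest class of height the share found was larger where another mark was called. Heights inside a class were not matched. In the lowest class 46.4% of regions with H2A.Z had an overexpression peak and 25.5% of those without, and with H3K27ac the shares were 40.4% and 23.9%. With H3K4me1 they were 32.4% and 26.8% in that class, but in the other 4 classes the share with H3K4me1 was the smaller one, as in the third with 82.1% and 88.2%. In the fourth class the ratio was 0.645 with H2A.Z and 0.613 without, and 0.645 and 0.608 with and without H3K27ac. FLAG regions of the control, where tagged VPS72 was called, lay on 17.5% of control H2A.Zac regions. The ratio was 0.644 on them and 0.652 elsewhere. Input gave no region of q of 0.05 or less on a control H2A.Zac region, and 1 of 28331 with overexpression.

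At places that kept peaks of both marks, the acetylated form was lower more often, and by more, than the total variant. At 13680 control regions with an H2A.Z region and peaks of both marks in both conditions, the median ratio was 0.646 for H2A.Zac and 0.852 for H2A.Z. H2A.Zac had the lower ratio of the pair in 80.5%. The height of H2A.Zac over that of H2A.Z had a median of 2.16 in the control and 1.57 with overexpression. This quotient sets 2 antibodies side by side, so only its change between the libraries can be read. Of all 16812 control regions with an H2A.Z region, 15650 had an H2A.Zac peak with overexpression. Fewer, 14156, had H2A.Z peaks in both conditions. Control H2A.Z regions had a median of 10 reads at the summit, and places where H2A.Z had no overexpression peak are left out. How far this moves the H2A.Z ratio and the quotient was not tested. At 16548 regions with H3K27ac the medians were 0.652 and 0.745, and both marks were below 1 in 86.8%. At 3988 regions with H3K4me1 they were 0.648 and 1.14, and H2A.Zac was below 1 with H3K4me1 at or above 1 in 67.2%. The calls changed in the same directions: of the 40081 control regions, 28.4% overlapped an H2A.Z region with overexpression, against 41.9% in the control, 44.03% against 49.9% an H3K27ac region, and 45.5% against 14.4% an H3K4me1 region. The whole lists changed too, from 26099 to 14109 regions for H2A.Z, from 27379 to 23861 for H3K27ac and from 20108 to 85651 for H3K4me1. These shares are therefore not read as particular to H2A.Zac regions. The pairs of changes are from 1 library each, and regions of a library share its depth and enrichment.

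Regions of 1 list only were mostly weak. In the control, 10432 regions, 26.0%, had no deposited overexpression peak, and their median height was 5.67 against 12.9 for the others. Still 1153 of them had a q of 1e-05 or less. H2A.Z was called at 11.1% of them and at 52.8% of the others, and H3K27ac at 23.3% and 59.2%. With overexpression, 1885 regions, 6.65%, had no control peak, with a median height of 4.93, and 4 of these had a q of 1e-05 or less. By q, the strongest control regions with no partner were at 12q14.1 (chr12:61687536-61688392), with a height of 15.5, at 19p13.3 (chr19:3075475-3076699), with 15.5, and at 20q13.13 (chr20:48364190-48365091), with 17.01. By height they were not, since the highest of these summits was at 38.1. Total H2A.Z had a peak at all 3 in both conditions, with heights of 7.16 and 8.53, 7.16 and 6.70, and 7.87 and 6.70.

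By q, the strongest regions found with overexpression only were of another kind. A pair at Xq11.1 next to the centromere (chrX:61713656-61713925 and chrX:61722667-61723107) had heights of 73.0 and 45.7 but deposited folds, which are relative to the local background, of 2.07 and 2.14. Total H2A.Z of the overexpression library had a peak of height 76.8 at the first. At the second, Input itself passed q in both conditions, at a fold of 1.88 in the control library and 2.20 in the other. The part of this in the peak was not tested. The third, at Xp22.12 (chrX:19963602-19964390), had a height of 9.40, a fold of 5.27 and no peak of the other 3 marks in either condition.

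Single regions departed from the common ratio in both directions. Where the control q was 1e-05 or less, the lowest ratio was at 17p13.1 (chr17:7342814-7344192), where 23 reads at the summit in the control stood against 6 with overexpression, heights of 11.9 and 2.69 and a ratio of 0.227. The next were at 17q11.2 with 0.237, 17p12 with 0.240, 15q15.1 with 0.243, 19q13.11 with 0.245 and 2p22.1 with 0.248. At 19q13.11 (chr19:33783685-33785101), H3K27ac was 32.06 and 25.6 times its genome average, against 20.1 and 4.93 for H2A.Zac. Among overexpression regions of the same q, the highest ratio was at 5q21.3 (chr5:105489836-105490408), with 7 and 17 reads, heights of 3.61 and 7.61 and a ratio of 2.11. The next were 1.68 at 19p13.2, 1.59 at 14q22.1, 1.58 at 3q22.1 and 12q24.33 and 1.56 at 4q31.3. Summits of so few reads carry a wide counting error, and the extremes of so many ratios were picked for being extreme.

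Of the 6 regions with the smallest q, 5 were the same in both libraries, and all were lower with overexpression. In place of 1 at 11q13.2, the overexpression list had 11q12.2 (chr11:61559536-61561101), with heights of 76.3 and 60.45 and a ratio of 0.792, also in a segment of raised background. The region with the smallest q in each was at Xq23, with 299 reads in the control and 257 with overexpression, or heights of 154 and 115. At 2q13 they were 107 and 64.9. The other 4 of the 6 strongest control regions lay at 11q13.2, in a segment of raised background, with ratios of 0.626 to 0.840. A total of 16 bins of 500 kb on 11q and 14q had such a background in both libraries. Bins of other chromosomes were left out by rule, so raised background elsewhere was not counted. The 16 bins held 327 control and 248 overexpression regions, and 35 and 29 of the 100 strongest. The median ratio was 0.661 in the bins and 0.652 outside.

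Lower counts were spread over the genome. All 41 chromosome arms with at least 100 control regions had fewer with overexpression, from 0.595 times on 5p to 0.844 on 19q, and median height ratios of 0.608 on Xp to 0.683 on 4q. Among 83 bands with at least 100 control regions the count ratio was lowest at 5p13.2, with 117 and 61 regions, a ratio of 0.521, then at 7q34 with 0.533 and 5q11.2 with 0.563. It was highest at 4p16.3, with 115 and 106 regions, a ratio of 0.922, then at 17q21.31 with 0.912 and 5q35.3 with 0.905. The height ratio in those 6 bands was 0.634 to 0.675, close to that of all regions, and the bands with high count ratios had the higher control heights, of 11.3 to 15.98 against 7.22 to 9.79. Light bands held 17.99 control regions per Mb and the darkest bands 6.71, with count ratios of 0.721 and 0.642. The bands of the genes in the study's title were not set apart: 1q21.3, which holds VPS72, had 148 and 116 regions and a height ratio of 0.652, 1q32.3, with ATF3, had 85 and 59 and 0.6697, 1p36.22, with MTOR, had 130 and 95 and 0.656, and 17p11.2, with SREBF1, had 185 and 126 and 0.623. A band holds many genes, and none of these values is that of the gene.

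Gene starts were read from 2 samples of hg19 gene models that come with analysis software, since the full annotation was not used here. They gave 405 genes with a current symbol, 329 of them protein-coding and 124 on chromosome 1, so they are not an even sample of the genome. An H2A.Zac region lay within 1 kb of a start in 265 genes, 65.4% (Wilson 95% interval 60.7 to 69.9, counting error only), in the control and in 243, 60% (55.2 to 64.7), with overexpression. For protein-coding genes the shares were 70.8% and 65.0%, or 233 and 214 of 329. There were 242 genes with a region in both, 23 with 1 in the control only and 1, CASP1, with 1 with overexpression only. CASP1, a protease of inflammation, was named after its value was seen.

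Summits stood on both sides of the start. Of the control summits within 5 kb of the 329 protein-coding starts, 80.4% were within 1 kb, and 83.5% with overexpression. There were 238 and 237 of them, and 51.3% (44.9 to 57.5) and 52.3% (46.0 to 58.6) lay on the side of the gene body. The 250 bp just before the start held fewer summits than the bins on either side. Active starts are known to have a gap in nucleosomes there. In the control there were 26 summits there, 58 in the bin from 500 to 250 bp before and 80 in the first 250 bp of the gene. With overexpression they were 25, 64 and 77.

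**Figure D4:**
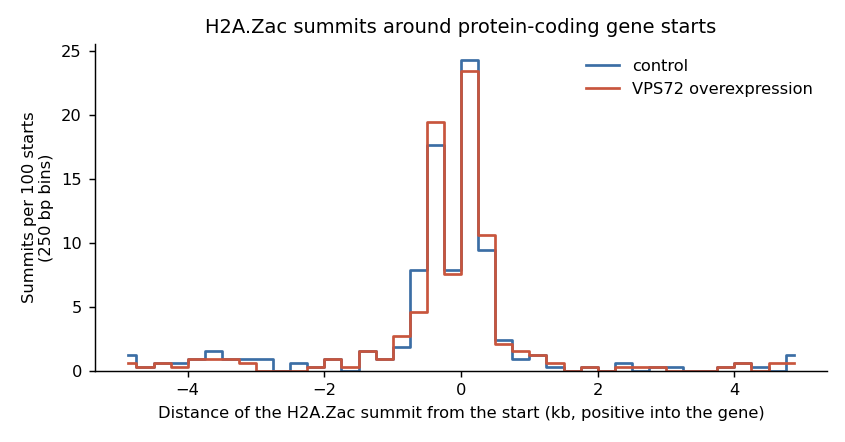
H2A.Zac summits per 100 protein-coding gene starts (329 starts) in 250 bp bins, by distance from the start in kb, positive into the gene, for the control (blue) and VPS72 overexpression (red) libraries. Both have 2 peaks flanking the start, with a dip in the 250 bp before it, where the counts were 26 and 25.

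Height was lower at gene starts as elsewhere. The highest peak within 1 kb of a start was taken in each library, so the 2 peaks need not be the same one, and at 11 genes they did not overlap. A peak counted if any part of it was within that distance, so its summit can lie farther away. At the 255 genes with a control region and an overexpression peak, the median ratio was 0.652, from 0.307 to 1.23. Of them 139, or 54.5%, were at least 1.5 times lower, near the 53.3% of all regions, and none was at least 1.5 times higher. At the 244 genes whose 2 peaks overlapped, the median was 0.650 and 54.1% were at least 1.5 times lower. Only 3 were above 1: AGXT, FAM199X and KANK1, with ratios of 1.01, 1.23 and 1.13. The last 2 were named after their values were seen. Of the other marks, control and overexpression libraries had H3K27ac regions at 217 and 210 starts and H2A.Z regions at 196 and 147. For H3K4me1 they were 35 and 116. The whole lists went the same way, with 27379 and 23861 regions of H3K27ac, 26099 and 14109 of H2A.Z and 20108 and 85651 of H3K4me1. These counts are therefore not read as particular to gene starts.

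Promoters with many CG dinucleotides carried the mark most often. RefSeq promoters (GRCh38.p14), matched by symbol, were at hand for 275 of the 329 protein-coding genes, and the 250 bases before the start were read. The start in that table can be another than the hg19 start used above. CG was counted on 1 strand, since its reverse complement is CG. Among all 35116 RefSeq promoters, 52.2% held 10 or more. An H2A.Zac region was found at 165 of the 192 genes with 10 or more, 85.9% (80.3 to 90.2), and at 35 of 83 genes with fewer, 42.2% (32.1 to 52.9), in the control. With overexpression the shares were 81.3% and 34.9%. The median ratio was 0.648 at the first and 0.627 at the second. On chromosome X, CpG islands gave the same order: they cover 0.472% of it and held 46.1% (42.9 to 49.3) of its 931 control regions and 59.2% (55.2 to 63.0) of its 595 overexpression regions. Of 896 islands, 374 had a region in the control and 293 with overexpression. Control regions on islands were found again in 90.9%, others in 64.9%, with ratios of 0.644 and 0.632. Their median control heights also differed, at 9.28 on islands and 6.70 off them, and heights were not matched here.

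The following 6 stretches show what these promoters look like, with CG in capitals. SEC23B and BTD stand for promoters where the mark was strong and lower with overexpression, MAPK9 and AGXT for those where the height was nearly equal, HABP2 for a region found in the control only, and CRP for a start with no peak. Each is the 250 bases before the RefSeq start, in the direction of the gene.
SEC23B: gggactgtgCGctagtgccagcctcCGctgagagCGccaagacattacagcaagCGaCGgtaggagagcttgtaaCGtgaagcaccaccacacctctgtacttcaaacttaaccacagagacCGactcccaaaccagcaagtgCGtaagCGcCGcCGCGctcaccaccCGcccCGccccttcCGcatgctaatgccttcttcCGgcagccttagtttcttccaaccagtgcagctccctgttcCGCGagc
BTD: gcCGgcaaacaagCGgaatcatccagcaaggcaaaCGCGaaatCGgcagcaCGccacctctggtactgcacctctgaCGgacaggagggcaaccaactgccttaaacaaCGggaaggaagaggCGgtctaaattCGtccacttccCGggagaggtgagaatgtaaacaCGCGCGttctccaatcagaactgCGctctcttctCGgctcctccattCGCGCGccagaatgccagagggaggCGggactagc
MAPK9: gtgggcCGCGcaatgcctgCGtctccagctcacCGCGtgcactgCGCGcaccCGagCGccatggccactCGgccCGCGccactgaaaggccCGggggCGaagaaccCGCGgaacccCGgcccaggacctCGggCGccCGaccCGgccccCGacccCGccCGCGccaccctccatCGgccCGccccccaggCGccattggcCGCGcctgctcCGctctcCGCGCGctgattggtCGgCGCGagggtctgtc
AGXT: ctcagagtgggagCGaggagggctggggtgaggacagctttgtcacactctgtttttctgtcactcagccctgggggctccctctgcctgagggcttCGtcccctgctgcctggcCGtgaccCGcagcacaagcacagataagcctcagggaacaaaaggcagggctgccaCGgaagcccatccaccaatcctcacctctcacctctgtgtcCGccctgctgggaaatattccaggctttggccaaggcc
HABP2: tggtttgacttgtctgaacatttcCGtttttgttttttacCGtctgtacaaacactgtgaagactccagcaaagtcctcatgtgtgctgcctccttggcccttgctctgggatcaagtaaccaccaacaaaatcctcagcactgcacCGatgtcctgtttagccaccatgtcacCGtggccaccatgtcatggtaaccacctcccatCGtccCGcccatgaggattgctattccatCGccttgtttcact
CRP: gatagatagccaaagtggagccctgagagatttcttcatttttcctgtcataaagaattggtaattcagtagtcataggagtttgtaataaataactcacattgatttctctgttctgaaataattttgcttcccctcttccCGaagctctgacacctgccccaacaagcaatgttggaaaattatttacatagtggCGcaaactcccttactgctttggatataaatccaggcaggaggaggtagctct
They are at chr20:18507298-18507547 (plus strand, SEC23B), chr3:15601495-15601744 (plus strand, BTD), chr5:180292084-180292333 (minus strand, MAPK9), chr2:240868574-240868823 (plus strand, AGXT), chr10:113550581-113550830 (plus strand, HABP2) and chr1:159714590-159714839 (minus strand, CRP) of GRCh38.p14. In that order they hold 18, 20, 37, 6, 7 and 2 CG. AGXT and HABP2 carried a region with few CG, and CRP, with the fewest, had no peak.

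Genes of liver metabolism and secretion were marked at 10 of 13 starts in the control and 8 with overexpression. The list was 76.9% marked (49.7 to 91.8) against 65.4% of all genes of the sample and 70.8% of its protein-coding genes. Of the 9 with a peak in both, 6 were at least 1.5 times lower and none higher, with a median ratio of 0.624. The share lower was 66.7%, against 54.5% of all genes of the sample and 57.1% of its protein-coding genes. Without DECR2, whose 2 peaks did not overlap, it was 5 of 8. BTD, the enzyme that recycles biotin, had 48 reads at the summit in the control and 32 with overexpression, heights of 24.7 and 14.3 and a ratio of 0.579. AMT, of glycine cleavage, had 45 and 28 reads, heights of 23.2 and 12.5, and A1BG, a plasma protein, 45 and 33 reads, heights of 23.2 and 14.8. These summits were among the highest of the list in both libraries. A1BG has 2 listed starts, and its control region (chr19:58873058-58874928) was not near the start at chr19:58864865 but at another.

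OAT, which breaks down ornithine, had heights of 19.6 and 11.19 and a ratio of 0.572, with H3K27ac at 14.4 and 6.53. The ratio was 0.624 at SLC39A8, a zinc and manganese transporter, from 20.1 to 12.5, and 0.735 at CES2, a carboxylesterase of drug metabolism, from 13.4 to 9.85. DECR2, a peroxisomal enzyme of fatty acid oxidation, had a control region of 22 reads (exact Poisson 95% interval 13.8 to 33.3) and no region of q of 0.05 or less with overexpression. Its overexpression peak of 12 reads (6.20 to 21.0) lay on the other side of the start and did not overlap that region, so the 2 are not a change at 1 place.

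APOE, the lipoprotein ligand, had 21 and 20 reads, heights of 10.8 and 8.95 and a ratio of 0.827. AGXT, a glyoxylate enzyme of liver peroxisomes, had 19 and 22 reads, heights of 9.79 and 9.85 and a ratio of 1.01, and carried H3K4me1 but no H3K27ac peak. HABP2, a plasma protease, had 15 reads (8.40 to 24.7) in the control and no overexpression peak, and its H3K27ac height was 17.1 and 2.80. AQP9, a channel for glycerol, CRP, the acute phase protein, and XDH, the enzyme that makes uric acid, had no peak within 1 kb of a start in either library. Of the 5 liver markers among these, AGXT, APOE, A1BG and HABP2 had a control region and AQP9 did not. The region counted for A1BG was not near its start at chr19:58864865. Of 7 markers of other cell types (NPY, PCDH15, IL21, KLRG1, SFTPC, PF4 and SSX2) only KLRG1 had 1.

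**Figure D5:**
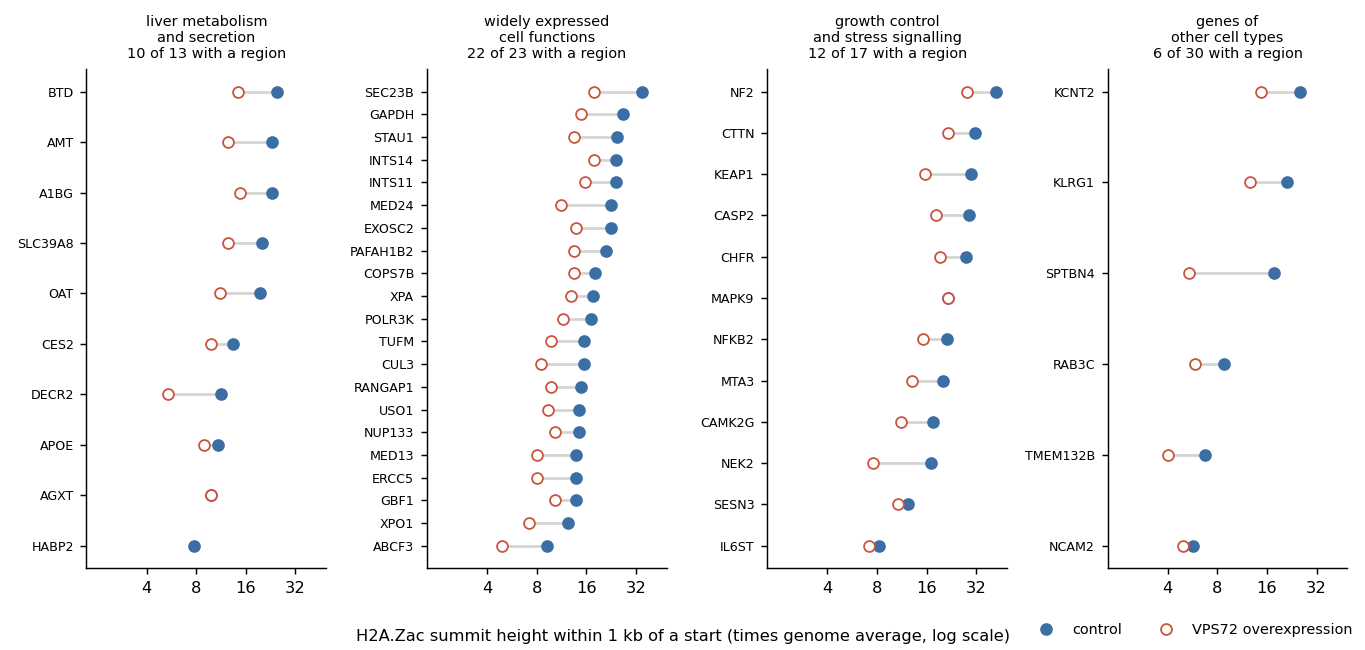
Summit height of the highest H2A.Zac peak reaching within 1 kb of a start (times the genome average, log scale). Control is filled blue and VPS72 overexpression open red, for genes of 4 lists with a control region. The summit itself can lie farther out. Of the genes counted, 1 widely expressed gene is not drawn. Most open points lie left of the filled ones; AGXT and MAPK9 are nearly equal, and HABP2 has no open point since no overexpression peak was listed. The 2 points of DECR2 are of peaks that do not overlap.

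Genes of widely expressed functions were marked at 22 of 23 starts in both libraries, the exception being NADK. In the control this was 95.7%, against 65.4% of all genes of the sample and 70.8% of its protein-coding genes. The median ratio was 0.636, from 0.494 to 0.745, and 16 of the 22 were at least 1.5 times lower. This share was 72.7%, against 54.5% of all genes and 57.1% of protein-coding genes. SEC23B, of the COPII coat, had 68 reads (52.8 to 86.2) in the control and 40 (28.6 to 54.5) with overexpression, heights of 35.04 and 17.9 and a ratio of 0.511. The lowest ratio was at MED24, a Mediator subunit, with heights of 22.7 and 11.19, and the highest at COPS7B, of the COP9 signalosome, with 18.0 and 13.4, and at XPA, of DNA repair, with 17.5 and 12.98. No gene of this list was near 1.

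Genes of growth control and stress signalling were marked at 12 of 17 starts in the control and 11 with overexpression, and 70.6% in the control is near the 70.8% of protein-coding genes. Of the 12, 5 were at least 1.5 times lower, with a median ratio of 0.676. This share was 41.7%, against 54.5% of all genes and 57.1% of protein-coding genes. NF2, a tumour suppressor of the Hippo pathway, had the highest control summit of the lists, with 82 and 63 reads and heights of 42.3 and 28.2. CTTN, an actin regulator, had 31.4 and 21.5. The lowest ratios were at NEK2, a mitotic kinase, with 33 and 17 reads and 0.448, and at KEAP1, the sensor that holds NRF2, with 58 and 35 reads and 0.524. MAPK9, or JNK2, had 42 and 48 reads and heights of 21.6 and 21.5, a ratio of 0.993, while its H3K27ac height was 25.6 and 14.9. SESN3, a sestrin of stress response, had 24 reads in each and a ratio of 0.869. Its summits were at -1070 and -1045 bp from the start, negative being before it. A limit of 500 bp kept the control region, of height 12.4, by its edge but took another overexpression peak, of height 5.37. The ratio of 0.434 at that limit is therefore not a change at 1 place.

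Genes known for other cell types were marked at 6 of 30 starts in the control and at 5 with overexpression, and 20 had no peak in either. In the control this was 20.0% (9.50 to 37.3), against 65.4% of all genes of the sample and 70.8% of its protein-coding genes. All 6 marked in the control were lower, with a median ratio of 0.597, and 5 of them at least 1.5 times, or 4 when peaks within 2 kb were taken. KCNT2, a potassium channel gene, had heights of 25.3 and 14.8, and KLRG1, of lymphocytes, 21.1 and 12.5. SPTBN4, a spectrin of axons, had 34 reads (23.5 to 47.5) and 12 (6.20 to 21.0), heights of 17.5 and 5.37 and a ratio of 0.307, the lowest of the gene sample within 1 kb. This value rests on that distance, since within 2 kb the overexpression height was 13.4 and the ratio 0.767, and within 500 bp no control region lay. NCAM2, an adhesion molecule of neurons, had 11 reads in each and a ratio of 0.869, and RAB3C, of vesicle release, had 17 and 13 and 0.664. A region within 1 kb can belong to a neighbouring gene, since the start of another gene was not looked for.

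The 3 replication-dependent histone genes in the sample code for histone H4. H4C8 had 25 and 15 reads and a ratio of 0.521, and H4C2 had 11 and 12 reads and a ratio of 0.948. H4C3 had a peak of 9 reads in the control, which did not pass q, and none with overexpression. H3K27ac was called at all 3 in both libraries. With so few reads the 2 ratios cannot be told apart.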

How the data were processed

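ChIP DNA of Huh7 cells was sequenced with 1 library per antibody and condition, and the 2 H2A.Zac libraries were compared with the H2A.Z, H3K27ac, H3K4me1, FLAG and input libraries of the same cells beside them. Reads were trimmed with Trimmomatic, aligned with BWA and called with MACS2 per the submitters' processing notes, which also name FastQC, hg19 and hg38, without versions or roles. Contig names and coordinates of the deposited lists are those of hg19. The authors deposited for each peak an integer score, a fold, which is the ratio of the summit to the local background, and p and q as −log10 values, together with a summit offset. The lists reach a p of 0.05, so a limit of q of 0.05 or less was set on them. Each peak was called per library, not on pooled samples.

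Reads at a summit and its local background were solved from the deposited fold and −log10 p, with 1 scale per library, which gave whole reads (tolerance 0.002) for 99.9975% and 99.9973% of the 2 H2A.Zac lists; the solver was tested on simulated peaks. Depth was then computed with the caller's default genome size of 2.7 Gb. Height is reads over the genome average. Overlap means at least 1 bp. No test was run between conditions, and intervals are Wilson or exact Poisson at 95%, for counting error only.

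Bands and lengths came from circlize 0.4.16 and GenomeInfoDb 1.38.1. Gene starts came from the samples in pyranges 0.1.4 (390 genes, 8 without a match) and GenomicFeatures 1.54.1 (44 genes, 1 without a match), matched to RefSeq symbols, and CpG islands of X from pyranges. The build of the first sample is not stated, and its 7 alternate chromosome 6 contigs carry the hg19 names. Named genes are every liver list member and, in the other lists, the 2 highest in the control, the 2 lowest and the 2 highest ratios. Named regions are the 6 strongest, the 6 lowest and 6 highest ratios, the 3 strongest of 1 list only and the 3 widest. Values of 2 list members are not reported here, and both are in the counts of their lists. The lists, rules and limits were chosen with earlier results of these data known. Python 3.11.15, numpy 2.4.6 and pandas 2.3.3 were used.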

Additional observations from a re-analysis of the deposited data

How the results depend on the processing

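No paired analysis was possible because each group has 1 library. Of 45 alternatives 21 stayed within the limits set for the value and 24 moved, and all 20 alternatives of the region, length and height ratios were below 1. The share of control regions found with overexpression was 47.5% with a 50% overlap of both regions, 47.5% with summits within 200 bp and 74.0% with any deposited peak, and that of overexpression regions found in the control was 67.2% with a 50% overlap. The median height ratio was 0.635 at q of 1e-05 or less, 0.655 with a 50% overlap, 0.689 from the deposited fold and 0.662 over the local background, and at gene starts 0.676 from the fold. Regions at least 1.5 times lower were 45.7% by fold and 59.0% at q of 1e-05, and those at least 1.5 times higher 0.265% in the overexpression list, 1.21% by fold and 0.0303% at q of 1e-05. H2A.Z lay on 72.4% with any deposited peak and 60.3% at q of 1e-05 for H2A.Zac, H3K27ac on 59.4% and 64.3%, and H3K4me1 on 39.2% and 13.1%. Gene starts with a region were 71.4% and 64.7% with any deposited peak, and 74.4% and 67.4% among the 43 genes of the sample with a stated build. At gene starts the median was 0.650 over genes whose 2 peaks overlapped, a setting chosen after seeing the data. The causes were not tested, and the single library per group sets the limit: no spread between cultures can be had, and weak regions, with summits near 9 to 11 reads, can be missed in 1 library by counting alone.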
